A study of Mus musculus with 7 samples.

Results

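Enamel and salivary transcripts were followed in RNA of soft tissue taken near an injury drilled into the lower jaw bone of mice. The genes are Amelx, Ambn, Enam, Mmp20, Klk4, Amtn, Odam, Dspp, Bpifa2 and Bpifb1, which are 10 of the 49164 gene rows with counts, found by symbol. They were picked because enamel transcripts appear in some libraries only, so their counts and levels in the 7 libraries are a description, and nothing is concluded from a test on them. The study concerns gamma-delta T cells that make interleukin 17 in the healing of such defects. Polyadenylated RNA was sequenced from 4 WT libraries and 3 IL17KO libraries, the latter from mice without Il17a and Il17f, whose littermates served as WT per the labels. Both groups had a 1.5-mm defect, and muscle with soft callus was taken on day 5. The sources used here give no strain, age or sex, and they do not state whether the libraries are separate animals, so the spread between libraries may be partly technical.

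Teeth are made by paired epithelial and mesenchymal cells. Ameloblasts, the epithelial cells, first secrete an enamel matrix of amelogenin, ameloblastin and enamelin and later, in the maturation stage, remove the protein while the mineral hardens. Odontoblasts, on the mesenchymal side, lay down dentin. In the mouse the incisor grows throughout life, so that ameloblasts of every stage lie along its length inside the mandible, while the salivary glands lie in the soft tissue around the jaw. The labels name muscle with soft callus, and whether any cells of these tissues made the enamel transcripts was not tested.

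Total counts ran from 18539904 to 26271176 per library. A floor of 3 counts, used here as the limit of detection, corresponds to 0.111 to 0.162 CPM (counts set relative to TMM-scaled totals), and it covers counting error only. The targeted genes could not check the genotype labels, since Il17a had 0 counts in every library and Il17f had 1, 1 and 0 counts in IL17KO replicates 1, 2 and 3 and 0 in WT. All 10 skeletal muscle genes were far above the floor in every library, at a summed 9530 CPM (WT replicate 3) to 69100 CPM (IL17KO replicate 3), which checks the labelled muscle.

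Secretory-stage enamel transcripts were present in WT replicates 2 and 4 and nearly absent from the other 5 libraries. Amelx (ENSMUSG00000031354), which encodes amelogenin, the main protein of forming enamel, had 428 counts in WT replicate 2 and 1116 in WT replicate 4, and 0 counts in WT replicates 1 and 3 and in all 3 IL17KO libraries. Ambn (ENSMUSG00000029288), for ameloblastin, had 30 and 258 counts in the same WT libraries, 1 count in IL17KO replicate 3 and 0 elsewhere. Enam (ENSMUSG00000029286), for enamelin, had 62 and 63 counts there, 1 count in IL17KO replicate 1 and 0 elsewhere. Mmp20 (ENSMUSG00000018620), for enamelysin, the protease that trims these proteins during secretion, had 4 counts in each of WT replicates 2 and 4 and 0 in the other libraries. Thus the 4 genes of this stage were at or above the floor in the same libraries and under it in all others, both of the libraries being WT while the other WT libraries held none of these transcripts. In bulk RNA, fewer cells of a type and less RNA per cell cannot be told apart.

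**Figure D1:**
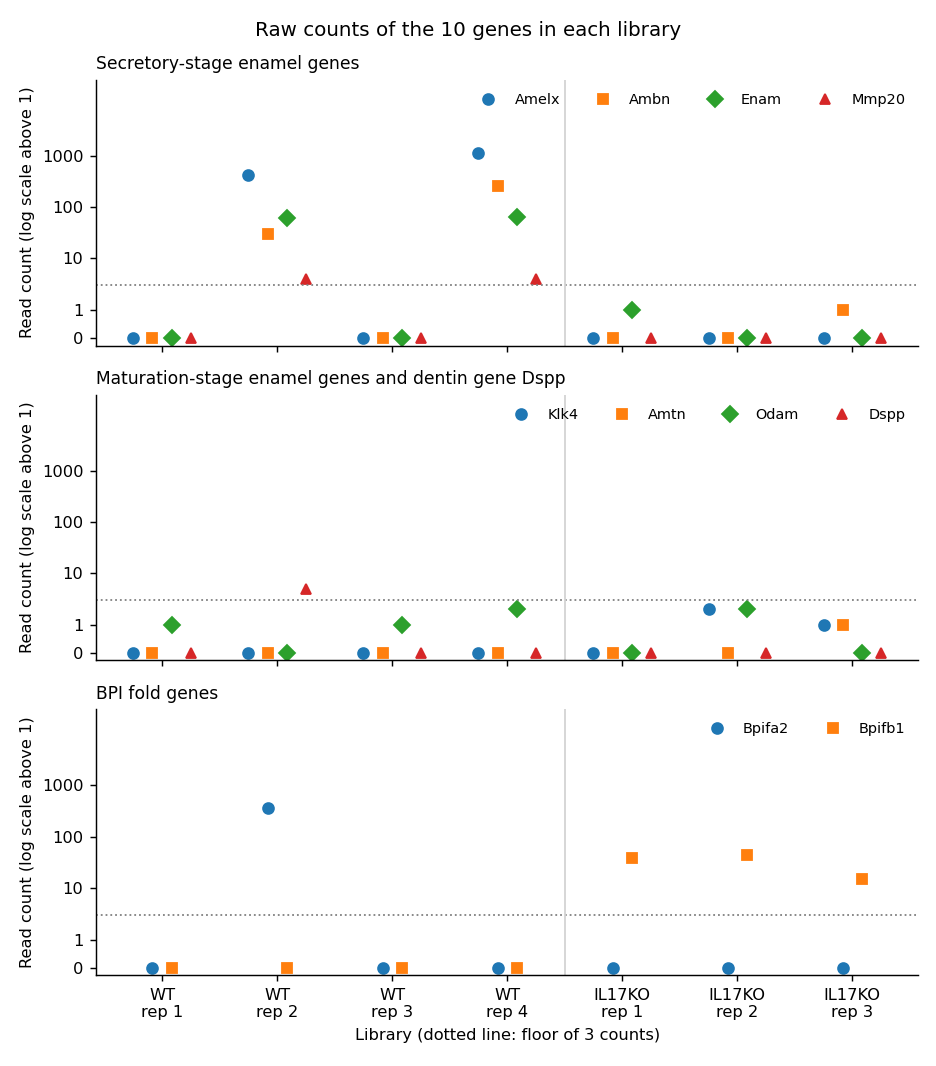
Raw read counts (vertical axis, log scale above 1) of the 10 genes in each of the 7 libraries (horizontal axis), with 1 symbol per gene and library and a dotted line at the floor of 3 counts. Amelx, Ambn, Enam and Mmp20 lie above the floor in WT replicates 2 and 4, Bpifa2 in WT replicate 2 and Bpifb1 in the 3 IL17KO libraries, while Klk4, Amtn and Odam stay at or below 2 counts.

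The starts of the 3 abundant enamel genes are shown because these genes appeared in the same libraries, and the starts of all 3 hold the same short stretch. RefSeq promoter windows of build GRCm38.p6, 250 bases before to 50 after the start, were found for 9 of the 10 genes. They read 5′ to 3′ on the strand of the gene, at chrX:169187160-169187459 (minus strand), chr5:88455741-88456040 (plus strand) and chr5:88487725-88488024 (plus strand). Capitals mark TGATTGG, which contains the reverse complement of the CCAAT box, a common promoter element. The Bpifa2 window, at chr2:154008026-154008325 (plus strand), follows for contrast and has none.
Amelx: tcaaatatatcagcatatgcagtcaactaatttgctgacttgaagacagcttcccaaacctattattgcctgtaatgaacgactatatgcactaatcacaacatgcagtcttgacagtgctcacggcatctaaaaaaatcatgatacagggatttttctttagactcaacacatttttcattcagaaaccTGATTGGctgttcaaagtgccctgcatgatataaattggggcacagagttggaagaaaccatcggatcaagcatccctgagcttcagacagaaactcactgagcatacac
Ambn: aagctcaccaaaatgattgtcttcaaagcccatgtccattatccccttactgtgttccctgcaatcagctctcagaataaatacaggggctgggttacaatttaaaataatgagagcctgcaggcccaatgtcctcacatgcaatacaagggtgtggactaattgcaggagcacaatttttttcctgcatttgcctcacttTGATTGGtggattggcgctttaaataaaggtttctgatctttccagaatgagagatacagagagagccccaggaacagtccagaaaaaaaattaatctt
Enam: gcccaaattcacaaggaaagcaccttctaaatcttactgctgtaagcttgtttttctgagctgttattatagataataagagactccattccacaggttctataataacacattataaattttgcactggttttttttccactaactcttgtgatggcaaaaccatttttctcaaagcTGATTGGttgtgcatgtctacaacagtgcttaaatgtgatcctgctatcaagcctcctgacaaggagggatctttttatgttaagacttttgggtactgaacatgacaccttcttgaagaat
Bpifa2: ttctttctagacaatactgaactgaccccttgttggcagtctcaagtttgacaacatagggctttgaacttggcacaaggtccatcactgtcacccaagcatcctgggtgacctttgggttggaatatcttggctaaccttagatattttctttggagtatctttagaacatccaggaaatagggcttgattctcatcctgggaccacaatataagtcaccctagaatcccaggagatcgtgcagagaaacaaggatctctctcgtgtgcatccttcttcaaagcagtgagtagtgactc

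The letters TGATTGG, sought on both strands, were chosen after these windows had been read. They occurred once each in Amelx, Ambn, Enam, Amtn and Odam, that is in 5 of the 7 enamel genes, with the first base 60, 49, 72, 68 and 64 bases before the start in that order. On either strand, 7.82% of all 32851 promoter windows of the same length held them. Klk4 and Mmp20 had no match, nor did Bpifa2 or Bpifb1. Amtn and Odam carry the same letters as Amelx, yet both were under the floor in every library, so the match did not separate the genes that were detected from those that were not. The letters TATAAA, on either strand, were in the windows of Amelx, Enam and Mmp20 and in 13.6% of all windows.

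Of the 3 matrix genes, Ambn and Enam differed in their proportions between the libraries that held them. In WT replicate 2, Amelx made up 82.3% of the 520 counts of Amelx, Ambn and Enam (95% exact Clopper-Pearson interval 78.8 to 85.5), Enam 11.9% (9.3 to 15.0) and Ambn 5.8% (3.9 to 8.1). In WT replicate 4, Amelx made up 77.7% of 1437 counts (75.4 to 79.8), Ambn 18.0% (16.0 to 20.0) and Enam 4.4% (3.4 to 5.6). Amelx led in both, but Enam exceeded Ambn in WT replicate 2 and Ambn exceeded Enam in WT replicate 4. Between the libraries, the intervals of Ambn do not meet, nor do those of Enam, while those of Amelx overlap. The intervals cover counting error only, since reads without molecular identifiers are not independent molecules, and they compare these libraries, not conditions.

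**Figure D2:**
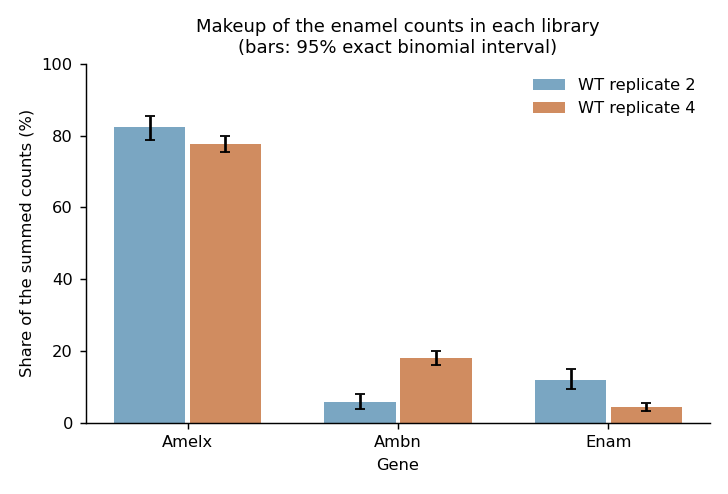
Share of each gene in the summed counts of Amelx, Ambn and Enam (vertical axis, percent) in WT replicates 2 and 4, with 95% exact binomial intervals as error bars. Amelx takes 82.3% and 77.7%, while Ambn (5.8% and 18.0%) and Enam (11.9% and 4.4%) change places by count, though not per kilobase.

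The same is seen in the levels. Amelx stood at 23.1 CPM in WT replicate 2 and 41.4 CPM in WT replicate 4, a ratio of 1.79 (95% exact interval of the counts 1.6 to 2.01). Ambn stood at 1.62 and 9.56 CPM, a ratio of 5.9 (4.04 to 8.93). Enam stood at 3.35 and 2.34 CPM, a ratio of 0.698 (0.483 to 1.01). The ratios of Amelx and Ambn were above 1 and their intervals do not meet, whereas the interval of Enam takes in 1. Per kilobase of annotated exon, the level of Amelx in WT replicate 2 was 27.4 times that of Ambn and 37.9 times that of Enam. In WT replicate 4 it was 8.31 times that of Ambn and 97.3 times that of Enam. Amelx was therefore the highest of the 3 per length in both libraries. Ambn exceeded Enam by this measure in both. Ambn stood at 0.844 against 0.61 CPM per kilobase in WT replicate 2 and at 4.98 against 0.425 in WT replicate 4. This order differed from that of the counts in WT replicate 2 only.

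Reads of neighbouring genes did not follow these transcripts. Amelx lies on the X chromosome inside Arhgap6, which is read from the opposite strand and encodes a GTPase-activating protein. Arhgap6 had between 205 and 305 counts in all 7 libraries, at 11.1 CPM in WT replicate 2 and 9.19 CPM in WT replicate 4, against 11.2 to 12.7 CPM in the other 5, so it was lowest where Amelx was highest. The libraries were made with a stranded kit, but the strand setting of the counting is not given in the sources used here. Ambn and Enam are neighbours on chromosome 5, between Amtn, which had at most 1 count, and Jchain, the joining chain of secreted antibodies, which had 0 to 15 counts with the highest in WT replicate 3. Utp3, the next gene after Jchain and a factor of ribosome assembly, had 1661 to 2308 counts in every library.

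Maturation-stage enamel genes were not detectable at this depth. Klk4 (ENSMUSG00000006948), for the kallikrein protease that clears the enamel matrix, had 2 counts in IL17KO replicate 2, 1 in IL17KO replicate 3 and 0 in the other 5 libraries. Amtn (ENSMUSG00000029282), for amelotin of the layer between ameloblast and enamel, had 1 count in IL17KO replicate 3 and 0 elsewhere. Odam (ENSMUSG00000009580), for a protein of maturation ameloblasts and of the epithelium that seals gum to tooth, had 1, 0, 1 and 2 counts in WT replicates 1 to 4 and 0, 2 and 0 in IL17KO replicates 1 to 3. These 3 genes were under the floor in every library, and their few reads did not collect in WT replicates 2 and 4. In those 2 libraries the 4 secretory genes summed to 524 and 1441 counts and the 3 maturation genes to 0 and 2.

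Dspp (ENSMUSG00000053268), for the dentin sialophosphoprotein that odontoblasts make and that early ameloblasts express for a short time, had 5 counts in WT replicate 2 and 0 in the other 6 libraries. It was therefore over the floor in one library with enamel transcripts and at 0 in the other, which held more Amelx. Dentin and bone share several matrix genes, and some of these were present in every library. Named after their values were seen, Mepe had 0 counts in every library and Sost at most 2. Of 10 mineral matrix genes, 6 to 8 were at or above the floor in each library, with Spp1 (osteopontin) at 1460 to 4630 CPM, Ibsp (bone sialoprotein) at 3.56 to 55.5 CPM and Dmp1 (dentin matrix protein 1) at 3.64 to 4.66 CPM. Ibsp had 395 counts in WT replicate 2 but 96 in WT replicate 4, against 95 in WT replicate 1 and 1000 in WT replicate 3, and so did not follow Amelx.

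Other genes needed for enamel did not separate the libraries with Amelx from those without. Of 22 genes that are mutated in inherited enamel defects or known from ameloblasts, 19 to 20 were at or above the floor in each library, and their summed level ran from 345 CPM (WT replicate 3) to 415 CPM (IL17KO replicate 3), with 362 and 412 CPM in WT replicates 2 and 4. The 5 most abundant were above the floor in every library, with or without Amelx. They were Ltbp3, which binds latent TGF-beta (127.0 to 146.0 CPM), the calcium sensor Stim1 (57.2 to 135.0 CPM), the integrin subunit Itgb6 (26.3 to 46.8 CPM), Slc10a7 (16.2 to 26.0 CPM) and the magnesium transporter Cnnm4 (18.9 to 24.8 CPM). Named after their values were seen, Acp4, a phosphatase gene mutated in enamel defects, had 6 counts in WT replicate 2, 2 in WT replicate 4 and at most 1 elsewhere, while Sp6, an ameloblast transcription factor, had 12 and 5 counts there and 18 in WT replicate 3. In the whole-table comparison of IL17KO with WT, 17 of these 22 genes were tested by edgeR and 0 passed an adjusted p under 0.05, with 1 at an unadjusted p under 0.05 (Slc24a4, a calcium exchanger of maturation ameloblasts, with a log2 fold change of 0.72 ± 0.24, SE). Their median log2 fold change was −0.04, and that of all 15399 tested genes 0.00. Of all tested genes, 468 were at an unadjusted p under 0.05.

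Epithelial keratins other than Krt10 were at low counts in every library. Of 25 oral and skin epithelium genes, 7 to 12 were at or above the floor, the most in WT replicate 2, and the summed level ran from 19.5 to 30.7 CPM with the highest value in WT replicate 1. The largest single part was Trp63 (8.05 to 22.5 CPM), a p63 transcription factor gene. After it came Sfn (2.62 to 3.89 CPM), Krt10 (2.01 to 3.19 CPM), Cdh1 (1.7 to 3.73 CPM) and Perp (0.367 to 2.39 CPM). Krt10 was above the floor in all 7 libraries. The basal keratins Krt14 and Krt5, named after their values were seen, had 7 and 6 counts in WT replicate 2, 8 and 9 in WT replicate 3, and 1 and 0 in WT replicate 4, the library with the most Amelx. These keratins did not follow the enamel transcripts over the libraries. Of 9 hair follicle genes 1 to 2 were at or above the floor, and of 9 kallikrein relatives of Klk4 2 to 3 were, led by Klk8 (0.49 to 1.15 CPM).

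Bpifa2 (ENSMUSG00000042459), for parotid secretory protein, an abundant protein of mouse saliva, had 370 counts (20.0 CPM) in WT replicate 2 and 0 in the other 6 libraries. WT replicate 4, which held more Amelx than WT replicate 2, had none, so the salivary and the enamel transcripts did not share all their libraries. A count of 0 in WT replicate 4 allows up to 0.111 CPM. The neighbours of Bpifa2 on chromosome 2 are relatives of the same family, Bpifb4, Bpifa6, Bpifa3 and Bpifa1, and had 0 or 1 counts in every library.

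Some other salivary gland genes were found with it. Of 22 salivary gland genes in the table, 14 were at or above the floor in WT replicate 2 and 4 to 6 in each of the other libraries. In WT replicate 2, 9 of them were at or above the floor and in all other libraries under it. They were Dcpp1 (32 counts), Dcpp3 (24) and Dcpp2 (3), for secreted proteins of demilune and parotid cells, Smr3a (25), of the submaxillary gland, Cst10 (11), for a cystatin, Dnase1 (11), for a secreted nuclease, Pip (8), for prolactin-induced protein, Prpmp5 (6), for a proline-rich protein, and Lpo (5), for lactoperoxidase. The Dcpp genes are close copies of each other, so the split of reads among them is uncertain. The most abundant list genes did not share this pattern. The summed level of the list was 28.6 CPM in WT replicate 2, 29.4 CPM in IL17KO replicate 3 and 4.75 to 16.8 CPM elsewhere. Egf, for epidermal growth factor, was lowest in WT replicate 3 (43 counts) and highest in IL17KO replicate 3 (383 counts). Amy1, for an amylase, was highest in WT replicate 2 (257 counts, 13.9 CPM). It was close to that in IL17KO replicate 3 (261 counts, 11.6 CPM) and at 0.575 to 5.0 CPM in the others. Named after their values were seen, Prb1, Prh1, Prol1 and Smr2 had 0 counts in every library, and Muc19, the mucin of the sublingual gland, at most 1. Named in the same way, Aqp5 had 2 counts in WT replicate 2, 7 in WT replicate 3 and 5 in WT replicate 4. Bhlha15 had 0 counts in WT replicate 2 and at most 1 elsewhere.

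**Figure D3:**
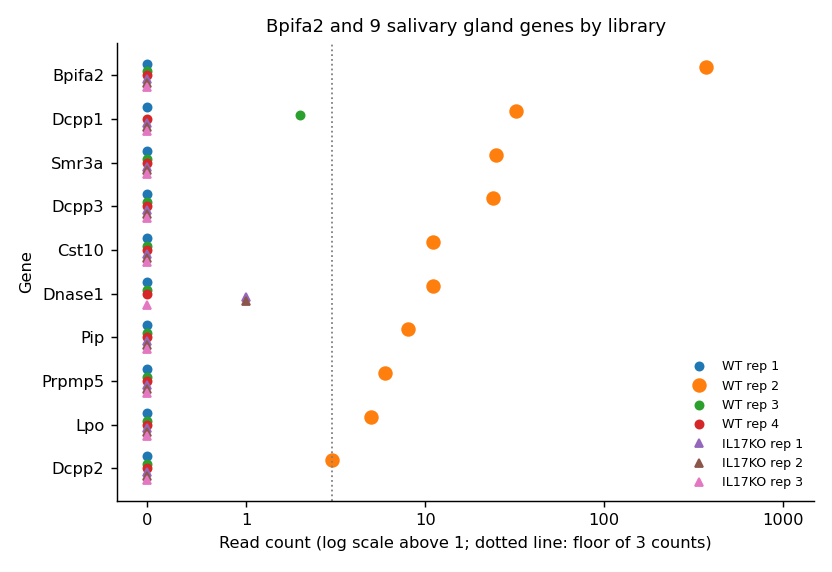
Read counts (horizontal axis, log scale above 1) of Bpifa2 and of 9 salivary gland genes (vertical axis) in the 7 libraries, circles for WT and triangles for IL17KO, with a dotted line at the floor of 3 counts. The 9 genes are those at or above the floor in WT replicate 2 alone, chosen after their values were seen, and the large symbols of that library run from 3 to 370 counts while no other library exceeds 2.

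Over all genes, such a pattern at higher counts was found in WT replicate 2 alone. There, 4 genes had at least 10 counts and 0 in the 6 other libraries, namely Bpifa2, Cst10, Dcpp3 and Smr3a, against 0 genes of this kind in each of the other 6 libraries. At the floor of 3 counts, 139 genes (0.287% of symbols) were confined to WT replicate 2, fewer than the 158 to 327 in the other libraries. The genes whose spread over the libraries was most like that of Bpifa2, by a measure defined with the nearest genes of the enamel sum, were 2310057J18Rik with 72 counts in WT replicate 2 and 2 in WT replicate 3, BC037156 with 66 and 2, Dcpp1 with 32 and 2, and Chia1, for an acidic chitinase, with 36 and 1 (distances 0.024, 0.026, 0.053 and 0.114). The fifth, Cidec, was at 0.523. The 2 counts that 3 of these genes had in WT replicate 3 are under the floor.

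Bpifb1 (ENSMUSG00000027485), for a secreted BPI fold protein of airway and mucosal glands, had 38, 44 and 15 counts in IL17KO replicates 1, 2 and 3 and 0 in all 4 WT libraries. The IL17KO mean was 1.31 ± 0.568 CPM (SD, n = 3), with single libraries at 0.665 to 1.72 CPM. The mean was 38.6 times the level of 3 counts over the 4 WT libraries together (0.034 CPM), a ratio that leaves out the spread between libraries. The groups do not overlap, as was the case for 3.89% of all tested genes, and as the gene was picked from these counts nothing is read from it. The libraries with Bpifb1 are none of those with Amelx or Bpifa2.

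Genes of airway and mucous epithelium were at low counts in all libraries. Of 10 such genes, 1, 2, 2 and 2 were at or above the floor in WT replicates 1 to 4 and 2, 2 and 4 in IL17KO replicates 1 to 3, and the summed level ran from 0.409 CPM (IL17KO replicate 1) to 0.864 CPM (WT replicate 2). Foxj1, a regulator of ciliated cells, had 2, 1, 4 and 7 counts in WT replicates 1 to 4 and 4, 9 and 4 in IL17KO replicates 1 to 3. Ltf, for lactoferrin, had 2 to 6 counts in WT and 2 to 4 in IL17KO, and Scgb3a1, a secretoglobin, 1 to 6 and 1 to 4. Reg3g, a secreted lectin of mucosal epithelium, had 0 to 2 counts in WT and 0, 5 and 4 in IL17KO. The groups overlapped for each of these 4 genes. Muc5b, an airway mucin, had at most 2 counts. Named after their values were seen, Scgb1a1, the club cell secretoglobin, had at most 1 count, and Muc5ac, Scgb3a2 and Tff2 had 0 in every library. Of 14 relatives of the BPI family 9 had 0 counts throughout and 2 were at or above the floor, Pltp, for phospholipid transfer protein (56.3 to 81.0 CPM), and Lbp, for the endotoxin-binding protein (6.54 to 9.8 CPM), both in every library. Its neighbours Bpifa1, Bpifa5, Bpifb5 and Bpifb9a had at most 2 counts.

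The label of enamel and salivary genes from neighbouring tissue therefore does not cover all 10 genes. As to the type of gene alone, it covers Amelx, Ambn, Enam and Mmp20 as secretory enamel genes. It likewise covers Bpifa2 as a salivary gene found with some others of its list. The tissue of origin of these transcripts was not tested. Klk4, Amtn and Odam were not detectable, Dspp rested on 5 reads, and of the airway and mucous genes none had more than 9 counts in a library with Bpifb1. Whether the tissue pieces of WT replicates 2 and 4 held part of the incisor, and that of WT replicate 2 part of a gland, was not tested.

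Genes with the most similar spread over the libraries were then sought. The share of each library in a gene's summed CPM was compared with that of the 7 enamel genes summed, of which WT replicate 4 held 65.1% and WT replicate 2 held 34.4%. The distance is the total variation distance, that is the part of the summed level that would have to move between libraries to make the shares equal, and runs from 0 (the same shares) to 1. Among the enamel genes it was 0.014 for Amelx, 0.203 for Ambn and 0.247 for Enam. Each of these is part of the sum, and Amelx holds most of its counts, so the small distance of Amelx was set in advance. Of genes with at least 30 counts that are not among the 10, the nearest was Cyp2e1, a cytochrome P450 (0.247, as for Enam). Cyp2e1 had 7 and 21 counts in WT replicates 2 and 4 and 0 to 5 in the others. Next was Atp6v0a4, a subunit of the proton pump (0.31), with 13 and 19 counts there and 2 to 5 elsewhere.

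**Figure D4:**
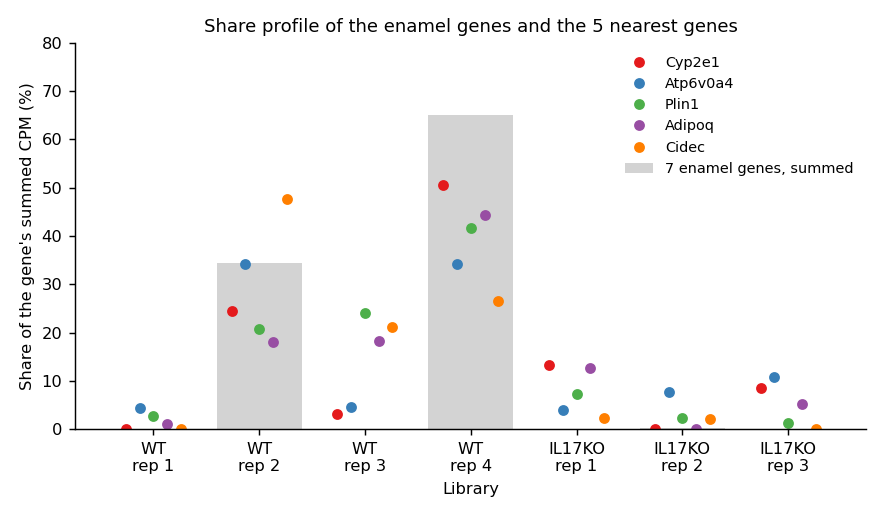
Share of each library in the summed CPM (vertical axis, percent) for the 7 enamel genes together (grey bars) and for the 5 genes with the nearest profiles (coloured points), over the 7 libraries (horizontal axis). The enamel sum lies at 34.4% in WT replicate 2 and 65.1% in WT replicate 4 and under 1% elsewhere, and Plin1, Adipoq and Cidec also have a sizeable share in WT replicate 3.

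The following genes were fat cell genes and others of low counts. Plin1, which coats lipid droplets (0.371), Adipoq, for adiponectin (0.372), Cidec, a lipid droplet protein (0.387), and Cfd, for adipsin (0.442), also had 8 to 39 counts in WT replicate 3. Cyp4f39 (0.4), F730311O21Rik (0.404), Chad, for the cartilage protein chondroadherin (0.426), and 3110070M22Rik (0.427) complete the 10. A weak likeness over 7 libraries at such counts says nothing of shared function or control.

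In the comparison of IL17KO with WT, edgeR tested 15399 genes and called 24 of them (0.156%) at an adjusted p under 0.05. Of the 10 genes described here, 9 did not pass the filter on low counts, Amelx included, since it was present in 2 libraries only. Bpifb1 passed through the group where it is high, and 0 of the 10 were called by edgeR, with 1 (Bpifb1) at an unadjusted p under 0.05 and 1 (Bpifb1) called by DESeq2. As the genes were picked from the same counts, nothing is read from this. Of the 115 genes of the other lists that had a count in any library, 50 were tested and 0 were called by edgeR or by DESeq2. At an unadjusted p under 0.05 there were 3 by edgeR (Car6, Slc24a4 and Tnmd) and 4 by DESeq2. Over all 15399 tested genes, 468 were at an unadjusted p under 0.05 by edgeR and 467 by DESeq2, so the 3 named genes are not singled out. Car6, for a secreted carbonic anhydrase of saliva, had 12, 17, 28 and 20 counts in WT replicates 1 to 4 and 11, 11 and 8 in IL17KO, with a log2 fold change of −1.09 ± 0.37 (SE, edgeR adjusted p = 0.987). Tnmd, for tenomodulin of tendon, had a log2 fold change of −0.76 ± 0.28 (SE, edgeR adjusted p = 0.987). The 3 salivary genes tested had a median log2 fold change of −0.01, the 5 epithelial genes 0.01, the 5 ligament genes −0.20, the 6 mineral matrix genes 0.26 and the 10 muscle genes 0.64. The summed muscle level overlapped between the groups, at 9530 to 34400 CPM in WT and 19500 to 69100 CPM in IL17KO.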

How the data were processed

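Per the labels, polyadenylated RNA from soft tissue was made into libraries with a stranded mRNA kit. Per the submitters' processing notes, TopHat, HTSeq, DESeq2 and cutadapt were among the tools and the build was GRCm39, while versions and settings are not stated there. The deposited table holds raw counts per gene, which the authors also divided by 1 size factor per library to give a normalized count signal for the 19754 rows with at least 10 counts. Of 55414 rows, 6250 are blank and were not used here. Columns were matched to samples by the library names in the labels, which differ from the sample titles. The names WT3 and WT4 occur both as library names (of WT replicates 1 and 2) and as titles (of WT replicates 3 and 4), and since the other WT and 1 IL17KO column carry names that are library names only, library names were used throughout. Values assigned to single WT libraries rest on this match.

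The group comparison used edgeR 4.0.16 with R 4.3.3 (quasi-likelihood, two-sided, TMM, filterByExpr, robust dispersion, Benjamini-Hochberg over all tested genes, threshold 0.05), with DESeq2 1.42.0 as an alternative, and the procedure was tested on simulated data. The replicate block, other normalizations and filters and leaving out each library were further alternatives. CPM used TMM-scaled library sizes. Exon lengths, chromosomes and gene order came from the GENCODE annotation of GRCm38, and promoters from RefSeq for GRCm38.p6. Exact intervals used SciPy 1.17.1.

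The genes and lists were chosen with earlier results of these data known. Named were all 10 genes, of the lists the most abundant genes (up to 5 each), and the 10 genes nearest to the enamel sum in their shares over libraries among those with at least 30 counts. Exceptions are marked in the text.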

Additional observations from a re-analysis of the deposited data

Results flagged for a closer look

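In the WT group of 4 libraries, 3 values stood apart from the rest by Dixon's criterion at 95%, which chance alone exceeds in about 5% of groups. The genes were picked for being present in some libraries only, so these marks restate that choice and are no evidence beyond it. The values were Bpifa2 in WT replicate 2 (20.0 CPM, with 0 in the other WT libraries), Dspp in WT replicate 2 (0.27 CPM, which is 5 counts, with 0 in the others) and Ambn in WT replicate 4 (9.56 CPM, with 0 to 1.62 CPM in the others). The criterion was applied to 17 sets of values, 6 single genes and 11 summed lists. Amelx, Enam and Mmp20, present in both WT replicates 2 and 4, were not marked by it, because it looks for a single library. The summed salivary list was not marked either, although Bpifa2 and 9 genes of that list were at or above the floor in WT replicate 2 alone.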

How the results depend on the processing

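The number of genes called between IL17KO and WT was 24 in the fit reported, 56 with DESeq2, 42 without a filter and 2 with the replicate number as a block, and it ran from 8 to 21 with 1 library left out. Same-numbered libraries of the groups deviated with correlations of 0.19, −0.36 and −0.64, so that the block rests on a shared number only. The count of list genes called was 0 under every alternative run. Bpifb1 was called by DESeq2 and without a filter, was not tested with a filter of 1 CPM in 3 libraries, and was not called in the other fits. With detection at 1 count in place of 3, the genes detected were 1 in place of 0 in WT replicates 1 and 3, and 2, 3 and 4 in place of 1 in IL17KO replicates 1, 2 and 3. At 10 counts WT replicates 2 and 4 held 4 and 3 of the genes, against 6 and 4 at 3 counts. Without Amelx, WT replicates 2 and 4 held 29.2% and 68.4% of the enamel sum, against 34.4% and 65.1% with it. With 1 library left out, the share of WT replicate 2 ran from 34.4% to 98.5% and that of WT replicate 4 from 65.1% to 99.2%, the highest values being those without the other of these libraries. The ratios between these libraries stayed inside their counting intervals with CPM on total counts or the deposited normalized values. With a minimum of 100 counts, 2 of the 10 nearest genes were kept (Chad and Cfd), since the others had fewer reads. Depth limits Mmp20, Dspp and the maturation genes, each at 5 counts or fewer in every library.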

Other observations

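By the distance of shares over libraries, with a minimum of 30 counts, the genes nearest to Bpifb1 were Gm9008 (0.068), Gm11942 (0.084), Tdg-ps2 (0.102) and Madcam1 (0.148), the last an adhesion molecule of mucosal vessels, which had 22, 40 and 19 counts in IL17KO replicates 1, 2 and 3 and 0 to 3 in WT. The fifth, Gm15459 (0.162), had 6894, 6741 and 6065 counts in IL17KO replicates 1, 2 and 3 and 3 to 10 in WT. Mmrn1, for multimerin 1 of platelets and endothelium, was the seventh (0.228), with 83, 75 and 94 counts in IL17KO and 0 in WT. The rest were Gm46223 (0.194), Gm49980 (0.234), Gm16092 (0.235) and Tdg-ps (0.237). No shared function or control was tested for these genes. This list was made after the data were seen.

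Fat cell transcripts varied between libraries as well. Adipoq had 1, 14, 16 and 50 counts in WT replicates 1 to 4 and 13, 0 and 5 in IL17KO replicates 1 to 3, and Plin1 had 2, 13, 17 and 38 and then 6, 2 and 1. Cfd had 0 counts in WT replicate 1 and in IL17KO replicate 2 and 57 in WT replicate 4. All 3 were highest in WT replicate 4, the library with the most Amelx, and present in WT replicate 3, which had no Amelx, and their part in the enamel result was not tested.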
